A study of Mus musculus with 50 samples.

Results

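The comparison described here is that of sham-operated mice of the stroke series with untreated mice, across all serum microRNAs (miRNAs) with enough counts. It sets the 5 MCAO_Sham against the 5 Naive libraries of the 25 libraries in the series, chosen by their labels alone. The series profiled circulating miRNAs by small RNA sequencing in C57BL/6 mice aged 8 to 12 weeks, in models of ischemic stroke and of intracerebral hemorrhage. MCAO_Sham mice went through the surgery that precedes occlusion of the middle cerebral artery, but no filament was placed in that vessel. Naive mice were given no treatment. The other groups are MCAO, ICH and ICH_Sham. Their libraries shape the count filter, the scaling and the shared estimate of spread, since all 25 entered the same fit. Their own levels are given only where stated. MCAO is filament occlusion followed by reperfusion, ICH is infusion of the animal's own blood into the striatum, and ICH_Sham is placement of the needle without infusion. All groups share strain, age range, serum preparation from clotted blood and extraction from 200 µL of serum. Anesthesia, incision, vessel handling and the handling of the animals are all part of MCAO_Sham and absent from Naive, so their shares in any difference cannot be told apart. The time from sham surgery to blood collection is not given for MCAO_Sham in the sources used here. Whether a library stands for 1 animal is not stated in the labels. The p-values therefore describe variation among libraries, part of which may be technical.

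miRNAs are short RNAs that guide Argonaute proteins to messenger RNAs through their seed, the bases near the 5′ end, and lower the output of those messengers. Cells release them into blood in vesicles, lipoproteins and protein complexes, and damaged cells spill them, so serum carries miRNAs of many tissues. Some are rich in 1 source: miR-122-5p in hepatocytes, miR-1a, miR-133 and miR-206 in muscle, miR-451a and miR-486-5p in red cells, miR-223 in neutrophils and platelets, and miR-150-5p in mature B and T lymphocytes. A lower serum level cannot tell fewer cells of a type from less miRNA released per cell, nor from faster removal.

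Only 1 of 199 miRNAs kept by the count filter passed the test for MCAO_Sham against Naive, which is 0.503% of those tested. It was miR-150-5p, the lymphocyte miRNA, which fell to 0.456 of its Naive level. Next in the ranking by p stood miRNAs of the imprinted Dlk1-Dio3 region of chromosome 12, the muscle miRNA miR-133b-3p and the brain-enriched miR-129-5p, all higher on average in MCAO_Sham and none past the adjusted threshold of 0.05. A set of 18 miRNAs had an unadjusted p under 0.05 (9.05% of those tested), 14 of them higher in MCAO_Sham (7.04%) and 4 lower (2.01%). At that threshold about 9.95 would be counted if no miRNA differed.

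The mature sequences below are those of the miRNAs on which the results turn, taken from RefSeq for GRCm38.p6, 5′ to 3′, with the seed (bases 2 to 8) in capitals. The first pair shows the passenger arm of the miR-150 hairpin and a second lymphocyte miRNA. For miR-150-5p itself, the name alone is given.
miR-150-3p: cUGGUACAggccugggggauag
miR-342-3p: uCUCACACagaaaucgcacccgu
The next 8 are the members of the chromosome 12 cluster with an unadjusted p under 0.05, in genomic order, shown because they come from 1 locus and yet carry different seeds.
miR-434-3p: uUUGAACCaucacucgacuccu
miR-379-5p: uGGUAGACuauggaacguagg
miR-543-3p: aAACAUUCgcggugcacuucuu
miR-300-3p: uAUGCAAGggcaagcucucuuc
miR-382-5p: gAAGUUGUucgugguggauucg
miR-134-5p: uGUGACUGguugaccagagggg
miR-541-5p: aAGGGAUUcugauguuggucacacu
miR-409-3p: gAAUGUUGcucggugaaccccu
The last 5 are the muscle and brain miRNAs with the smallest p of their lists, and the 3 members of the miR-148/152 family, which share 1 seed and come from 3 chromosomes.
miR-133b-3p: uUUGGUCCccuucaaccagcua
miR-129-5p: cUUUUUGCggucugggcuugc
miR-148a-3p: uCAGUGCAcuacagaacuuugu
miR-148b-3p: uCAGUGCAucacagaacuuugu
miR-152-3p: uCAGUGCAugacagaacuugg

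Total miRNA counts ran from 51338 to 182763 in the MCAO_Sham libraries (92396 ± 53034, SD, n = 5) and from 38393 to 83564 in the Naive libraries (55662 ± 23160, SD, n = 5). Depth limits what can be seen: at these totals a miRNA with 3 counts over a whole group stands at a level of 6.08 CPM in MCAO_Sham and 11.3 CPM in Naive. CPM is the usual scaled count, here over the library's TMM-adjusted total. The mean log2 total was 0.67 higher in MCAO_Sham (exact two-sided permutation test, p = 0.159, adjusted p = 0.635 over 4 such values, where the smallest p that 5 against 5 libraries allow is 0.00794), and 0.38 higher without MCAO_Sham 4. Thinned to 38393 counts each, the libraries held 341 ± 12.2 detected miRNAs in MCAO_Sham and 330.5 ± 17.8 in Naive (SD, n = 5 each, exact permutation test, adjusted p = 0.683). That difference of 10.3 was 2.67 without Naive 2. Serum is the labelled material, and its usual miRNAs were present: miR-122-5p, miR-148a-3p, miR-451a, miR-486-5p, miR-16-5p and miR-223-3p were counted in all 10 libraries.

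The 10 most abundant miRNAs took 49.5 ± 2.27% of the counts in MCAO_Sham libraries and 50.0 ± 8.21% in Naive libraries (SD, n = 5 each, exact permutation test, adjusted p = 0.921). miR-148a-3p, abundant in many secretory tissues, was the largest on average in MCAO_Sham, at 9.14 ± 2.73% against 5.32 ± 1.64% in Naive (SD, n = 5 each). In Naive the largest was the liver miRNA miR-122-5p, at 12.0 ± 12.97% against 6.26 ± 2.96% in MCAO_Sham, because 2 Naive libraries carried far more of it than the other 3. Its share was 17.7% in Naive 1 and 32.4% in Naive 2, and between 3.02% and 3.87% in the rest of the group.

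**Figure D1:**
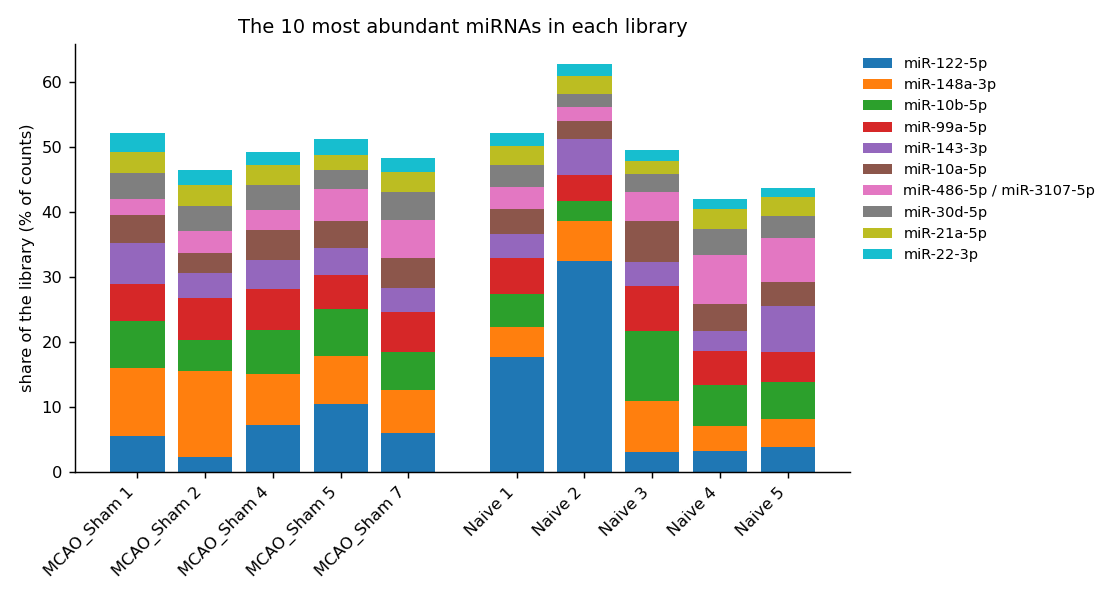
Share of each library's counts (percent, vertical axis) taken by each of the 10 most abundant miRNAs over both groups, with the 5 MCAO_Sham libraries left and the 5 Naive libraries right. Each bar is 1 library. miR-122-5p takes 32.4% of Naive 2 and 17.7% of Naive 1, and at most 10.5% of any other library.

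As a measure of red cell content, miR-451a was set over miR-23a-3p, a miRNA that is scarce in erythrocytes. The log2 ratio was -1.59 ± 1.03 in MCAO_Sham and -1.34 ± 0.49 in Naive (SD, n = 5 each), a difference of -0.25 (exact permutation test, p = 0.698, adjusted p = 0.921). MCAO_Sham 1 had the lowest ratio of the 10 libraries, at -3.22. When miR-486-5p was used for the numerator, the groups differed by -0.22 (exact permutation test, p = 0.468).

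Over all 199 miRNAs the log2 fold changes of MCAO_Sham over Naive centred on zero. Their quartiles were -0.24, -0.02 and 0.27, and 95 were positive and 104 negative. The range ran from -1.27 for miR-122-5p to 1.83 for miR-9-5p, a neural miRNA with no count in 4 of the 10 libraries. For 113 miRNAs (56.8%) the whole 95% interval lay within a 2-fold change in either direction, and for the others the data leave room for a larger one. Among the abundant miRNAs, miR-21a-5p, often raised in injured tissue, had a log2 fold change of -0.00 (95% interval -0.40 to 0.39), miR-99a-5p one of 0.08 (-0.27 to 0.43) and miR-10b-5p one of -0.03 (-0.55 to 0.48).

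**Figure D2:**
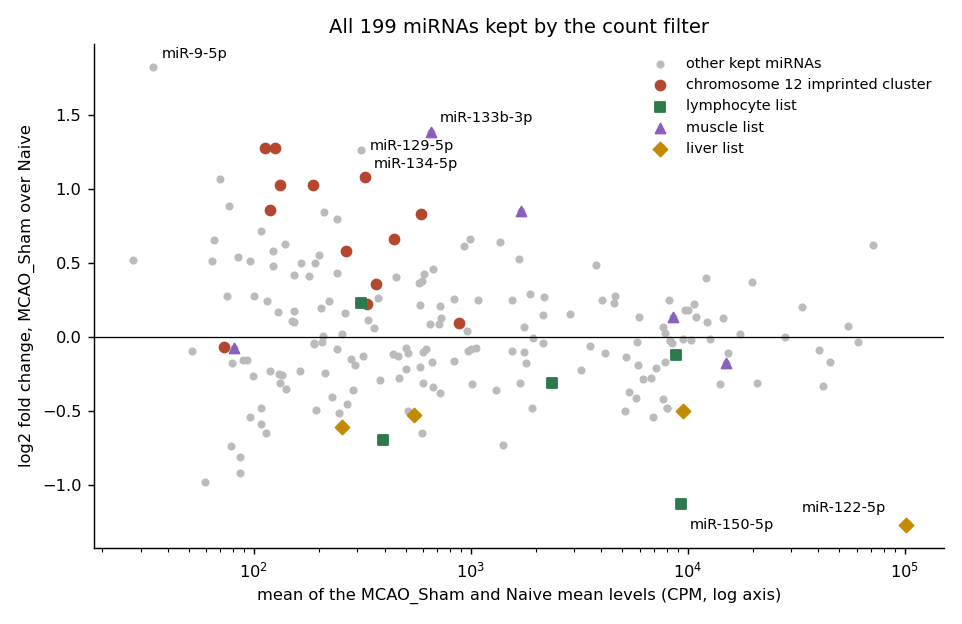
Log2 fold change of MCAO_Sham over Naive (vertical axis) against the mean level of the groups (CPM, log axis), 1 point for each of the 199 kept miRNAs. miR-150-5p lies at -1.13 among abundant miRNAs, and the members of the chromosome 12 cluster lie between -0.07 and 1.28 among miRNAs of low level.

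miR-150-5p is made in resting B and T lymphocytes and controls the transcription factor Myb during their development. Its hairpin lies on chromosome 7, at chr7:45121757-45121821 on the forward strand in GRCm38, outside any annotated host gene. Its level was 4089.6, 4824, 6247, 5039 and 8914 CPM in MCAO_Sham libraries 1, 2, 4, 5 and 7, against 13175, 7356, 11312, 14015 and 18047 CPM in Naive libraries 1 to 5. The groups overlapped only in that MCAO_Sham 7 stood above Naive 2, so 4 of the 5 MCAO_Sham libraries lay below every Naive library. At least 4 did so for 6 of the 199 miRNAs (3.02%). The means were 5823 ± 1894 CPM in MCAO_Sham and 12781 ± 3905 CPM in Naive (SD, n = 5 each). The log2 fold change was -1.13 ± 0.26 (SE, 95% interval -1.67 to -0.60), with an adjusted p of 0.0334 by edgeR's quasi-likelihood test. The call was also made by DESeq2 (adjusted p = 0.00175) and limma voom (adjusted p = 0.0383), and with the red cell ratio as a covariate (-1.13, adjusted p = 0.0362). It was lost, with 0 miRNAs called, when library totals alone set the scale, and without MCAO_Sham 1, MCAO_Sham 2, MCAO_Sham 5 or Naive 5. Without Naive 1 and Naive 2, which held the most miR-122-5p, miR-150-5p gave -1.38 (adjusted p = 0.00649). With index tags of the upper range alone it gave -1.43 (adjusted p = 0.0141), in a fit that also held the ICH_Sham and MCAO libraries of that range. In the lower range the 2 MCAO_Sham libraries averaged 7581 CPM, against 13175 CPM in the single Naive library. Over the 25 alternatives the log2 fold change of miR-150-5p ran from -1.43 to -0.99, with adjusted p between 0.00175 and 0.137.

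miR-150-3p, the other arm of the same hairpin, was at a much lower level. It stood at 132, 117, 35.1, 37.7 and 84.2 CPM in MCAO_Sham libraries, against 139.8, 66.1, 51.0, 138 and 158 CPM in Naive libraries. The groups overlapped over most of their range, and the log2 fold change was -0.54 ± 0.49 (SE, 95% interval -1.54 to 0.46, adjusted p = 0.614).

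The lymphocyte list held 8 miRNAs, of which 5 were kept by the filter. Only miR-150-5p passed the test, 4 of the 5 values were negative, and their median was -0.31, beside -0.02 over all 199. miR-342-3p, made from an intron of Evl and abundant in lymphocytes, stood at 149, 363, 316, 113 and 516 CPM in MCAO_Sham, against 521, 347, 382, 715 and 496 CPM in Naive. Naive 1 and Naive 4 lay above every MCAO_Sham library, and MCAO_Sham 2 and MCAO_Sham 7 lay within the Naive range. Its log2 fold change was -0.69 ± 0.32 (SE, adjusted p = 0.442). The miR-181 family, which tunes antigen receptor signalling in developing T cells, gave -0.12 for miR-181a-5p, -0.31 for miR-181b-5p and 0.23 for miR-181d-5p (adjusted p between 0.536 and 0.826). Below the filter, miR-342-5p had 12 counts over the MCAO_Sham group and 18 over Naive, a CPM ratio of 0.360 (exact 95% interval 0.158 to 0.789, counting error only), and miR-155-5p, induced in activated lymphocytes and macrophages, had 8 and 12 counts.

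In the myeloid list, 2 of the 3 kept members had positive values. miR-223-3p, which restrains neutrophil activation, stood at 546, 773, 947, 396 and 789 CPM in MCAO_Sham, against 635, 397, 484, 599 and 496 CPM in Naive. Both groups had a library near 396 CPM, and 3 MCAO_Sham libraries lay above every Naive one. miR-223-3p had a log2 fold change of 0.42 ± 0.24 (SE, adjusted p = 0.522), and the 5p arm gave 0.37 ± 0.21 (adjusted p = 0.522). The third kept member, miR-142-5p, common to blood cells, gave -0.04 ± 0.33. The median of the list was 0.37, and none passed the test. Of the inflammation-induced miRNAs, miR-146a-5p, a brake on NF-kB signalling, averaged 7919 ± 528 CPM in MCAO_Sham and 7768 ± 1498 CPM in Naive (SD, n = 5 each), a log2 fold change of 0.03 (95% interval -0.29 to 0.34). miR-146b-5p gave -0.36 ± 0.28 (SE), and the median of the 3 kept members was -0.00.

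**Figure D3:**
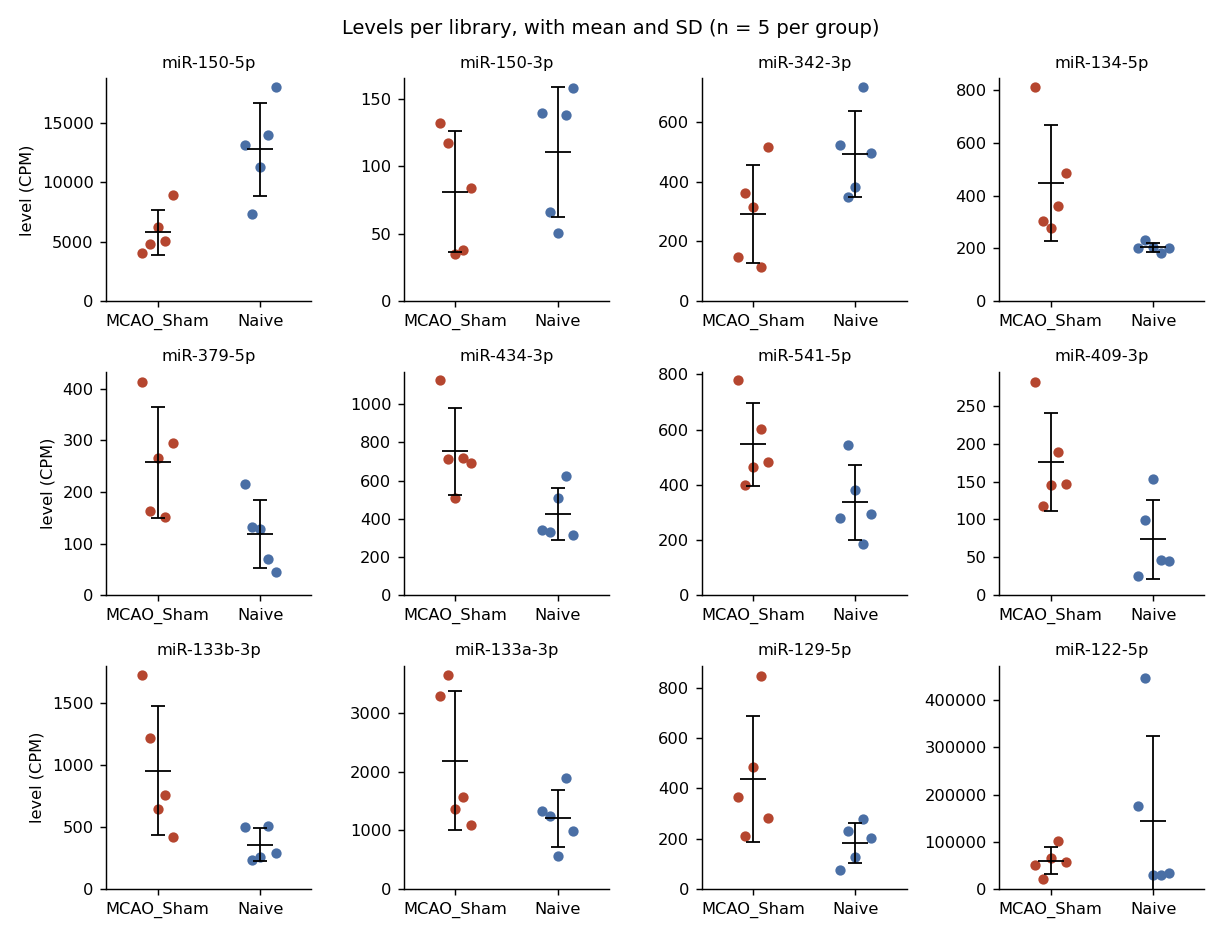
Level (CPM, linear axis from 0) of 12 miRNAs in each library, with MCAO_Sham left and Naive right in each panel; the bar marks the mean and the whiskers 1 SD (n = 5 per group). The lower whisker of miR-122-5p in Naive would end below 0 and is drawn to the axis. Only miR-134-5p shows no overlap between groups, and miR-150-5p overlaps by 1 library.

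The imprinted Dlk1-Dio3 region carries one of the largest miRNA clusters of the mouse, read from the maternal chromosome as part of long noncoding transcripts. In adult animals its miRNAs are found mostly in brain, and also in muscle and stem cells. It was singled out by position after its values had been seen, so what follows is a description. The miRNAs of the region share transcripts and libraries, and both arms of miR-434 are among them, so their values are not independent. Of the miRNAs in the window chr12:109563692-109747960 (GRCm38), 59 had a count in the 10 libraries and 13 passed the filter. A positive log2 fold change was found for 12 of the 13, beside 47.7% of all miRNAs. Their median was 0.83, beside -0.04 for the other 186. An unadjusted p under 0.05 was found for 8 of the 13, all of them higher in MCAO_Sham, beside 9.05% of all 199 in either direction and 7.04% higher, and none passed the adjusted threshold. In a fit of the MCAO_Sham and Naive libraries alone, 164 miRNAs were kept, 10 of them in the window. All 10 were positive, with a median of 0.70 and 5 at an unadjusted p under 0.05. The list of this region drawn up from known members held 10 kept miRNAs of 30, with a median of 0.75, and all 10 were positive. It was made with earlier results of these data known, and overlaps the window.

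**Figure D4:**
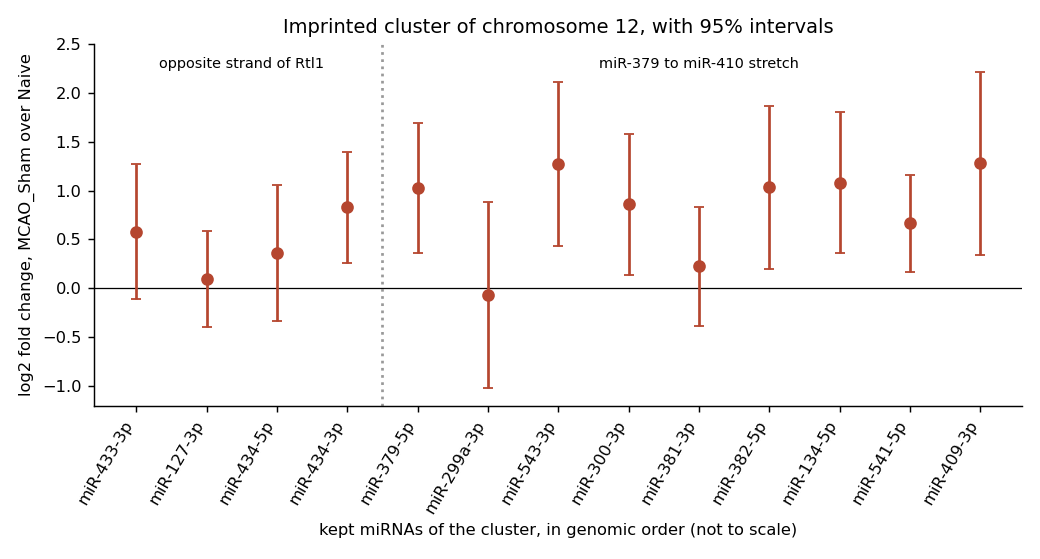
Log2 fold change of MCAO_Sham over Naive (vertical axis, point) with its 95% interval (bar) for the 13 kept miRNAs of the chromosome 12 cluster, in genomic order along the horizontal axis. All points but miR-299a-3p lie above 0, and 8 of the intervals do not reach 0.

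The stretch of the cluster from miR-431 to miR-136 lies opposite to Rtl1, a retrotransposon-derived gene of the placenta that these miRNAs are known to silence in trans. miR-434-3p, at chr12:109594506-109594599, stood at 1126, 714, 511, 717 and 695 CPM in MCAO_Sham, against 343, 331, 509.5, 622 and 315 CPM in Naive. Of the MCAO_Sham libraries, 4 lay above every Naive library, and Naive 4 lay above MCAO_Sham 4. At least 4 did so for 12 of the 199 miRNAs (6.03%). miR-434-3p thus had a log2 fold change of 0.83 ± 0.28 (SE, adjusted p = 0.192). The opposite arm, miR-434-5p, gave 0.36 ± 0.34, and miR-433-3p gave 0.58 ± 0.34. miR-127-3p, the most abundant of the cluster, averaged 916 ± 262 CPM in MCAO_Sham and 851 ± 99.9 CPM in Naive (SD, n = 5 each), a log2 fold change of 0.09 (95% interval -0.40 to 0.59).

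Further along lies the long array from miR-379 to miR-410. miR-134-5p, known in rat neurons for limiting dendritic spine size through Limk1, is made from within Mirg at chr12:109734139-109734209. It stood at 811, 304, 276, 359 and 484 CPM in MCAO_Sham, against 203.3, 231, 203.8, 184 and 202.8 CPM in Naive. Every MCAO_Sham library lay above every Naive library, and among the 199 miRNAs it was the only one (0.503%) whose groups did not overlap. For a miRNA that does not differ, 5 against 5 libraries separate fully with a probability of 0.00794, so 1 of 199 is no more than chance gives. With library totals alone, or with the libraries thinned to equal depth, 7 miRNAs had groups without overlap. Its log2 fold change was 1.08 ± 0.35 (SE, 95% interval 0.36 to 1.80, adjusted p = 0.192), and adjusted p ran from 0.0763 to 0.641 over the alternatives.

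miR-379-5p, the first of the array, at chr12:109709060-109709125, stood at 414, 164, 266, 151 and 295 CPM in MCAO_Sham, against 215.98, 132, 127, 69.2 and 45.1 CPM in Naive. All but Naive 1 of the Naive libraries lay below every MCAO_Sham library. The log2 fold change was 1.03 ± 0.33 (SE, adjusted p = 0.192), and without Naive 1 it was 1.45 with an adjusted p of 0.0375, the one alternative in which it was called.

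miR-543-3p, at chr12:109717258-109717333, stood at 199, 58.5, 140.3, 283 and 116 CPM in MCAO_Sham, against 25.4, 66.1, 76.4, 115 and 45.1 CPM in Naive. MCAO_Sham 2 lay within the Naive range and the other 4 above it, MCAO_Sham 7 by less than 1 CPM. The log2 fold change was 1.28 ± 0.41 (SE, adjusted p = 0.192). miR-409-3p, at chr12:109743158-109743236, stood at 281, 117, 145, 189 and 147 CPM in MCAO_Sham, against 25.4, 99.2, 153, 46.1 and 45.1 CPM in Naive. Naive 3 alone reached into the MCAO_Sham range. The log2 fold change was 1.28 ± 0.46 (SE, adjusted p = 0.241).

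miR-541-5p, at chr12:109742409-109742498, stood at 778, 398, 466, 604 and 484 CPM in MCAO_Sham, against 279, 546, 382, 184 and 293 CPM in Naive, so that Naive 2 lay among the MCAO_Sham libraries. Its log2 fold change was 0.66 ± 0.24 (SE, adjusted p = 0.241). miR-382-5p gave 1.03 ± 0.41 (adjusted p = 0.310) and was not counted in Naive 4. miR-300-3p gave 0.86 ± 0.35 (adjusted p = 0.323). The members of the array nearest to 0 were miR-381-3p, at 0.22 ± 0.30, and miR-299a-3p, at -0.07 ± 0.47.

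The summed level of the whole cluster was 5384 ± 1194 CPM in MCAO_Sham (4208 to 7053) and 3569.7 ± 839.6 CPM in Naive (2681 to 4662) (SD, n = 5 each). MCAO_Sham 2 and MCAO_Sham 4 lay below the highest Naive library, so the groups overlapped. MCAO_Sham 1, the library lowest in miR-451a, held the highest sum, and its part in the result was measured by leaving it out: the median log2 fold change of the 13 was then 0.61, with 12 positive and 6 at an unadjusted p under 0.05. With the red cell ratio as a covariate the median was 0.72. The 46 members under the filter held 279 counts over MCAO_Sham and 113 over Naive, from libraries that were deeper in MCAO_Sham. Scaled by depth these members summed to 621 ± 156 CPM in MCAO_Sham (466 to 844) and 426 ± 157 CPM in Naive (254 to 637) (SD, n = 5 each), with overlapping groups. The level was higher in MCAO_Sham for 30 of the 46, a count from which no difference was read. Many of them had very few counts, and a miRNA counted in 1 group alone scores as higher there. The deeper group holds more such cases, with effective totals of 493424 in MCAO_Sham and 266220 in Naive. The share among all miRNAs under the filter was not computed. Of the counts under the filter, miR-495-3p had 27 and 3, a CPM ratio of 4.86 (exact 95% interval 1.49 to 25.01, counting error only), and miR-485-5p had 31 and 12, a ratio of 1.39 (0.696 to 2.98). Ratios below 1 were found for miR-411-5p, with 21 and 12 counts (0.944, 0.444 to 2.11), miR-410-3p, with 6 and 6 (0.540, 0.144 to 2.02), and miR-369-5p, with 5 and 5 (0.540, 0.124 to 2.34).

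None of the 5 kept muscle miRNAs passed the adjusted threshold. miR-133b-3p, one of the miRNAs switched on as skeletal muscle differentiates, stood at 1722, 1218, 646, 755 and 421 CPM in MCAO_Sham, against 495, 231, 255, 507 and 293 CPM in Naive. Only MCAO_Sham 7 lay within the Naive range. For miR-133b-3p the log2 fold change was 1.38 ± 0.45 (SE, 95% interval 0.45 to 2.31, adjusted p = 0.192). Between the 3 MCAO_Sham and 4 Naive libraries with index tags of the upper range it was 1.98 with an adjusted p of 0.0141. That fit also held the ICH_Sham and MCAO libraries of the range, and was added after the data had been seen. In the lower range the MCAO_Sham libraries averaged 534 CPM, against 495 CPM in the single Naive library. miR-133a-3p stood at 3295, 3653, 1358, 1566 and 1094 CPM in MCAO_Sham, against 1334, 1239.8, 560.5, 1890.2 and 991 CPM in Naive. Its 2 highest values came from MCAO_Sham 1 and MCAO_Sham 2, and the other 3 lay within the Naive range. For miR-133a-3p the log2 fold change was 0.85 ± 0.46 (SE, adjusted p = 0.511). The mature forms of miR-133a-3p and miR-133b-3p are nearly identical, so the counting could divide reads between them.

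For the other 3 the fold changes were smaller than their SE. miR-206-3p, specific to skeletal muscle, averaged 14104 ± 5274 CPM in MCAO_Sham and 15934 ± 4082 CPM in Naive (SD, n = 5 each), a log2 fold change of -0.18 (95% interval -0.73 to 0.38). Its hairpin, at chr1:20679010-20679082, and that of miR-133b, at chr1:20682769-20682887, lie in the same annotated gene, Gm28653. miR-1a-3p, of skeletal muscle and heart, gave 0.14 (95% interval -0.56 to 0.84), and miR-499-5p, made from an intron of the slow myosin gene Myh7b, gave -0.08 (-1.11 to 0.95). Of the 7 listed muscle miRNAs, 5 were kept, 3 were positive, and their median was 0.14 with none past the threshold. The heart miRNAs miR-208a-3p and miR-208b-3p had 0 and 1 counts over MCAO_Sham and none over Naive.

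Most of the brain-enriched miRNAs listed did not pass the count filter. Of 15 listed, 4 were kept, all with positive log2 fold changes and a median of 1.17, beside 47.7% positive among all miRNAs, and none passed the test. The filter took in all 25 libraries, so a scarce miRNA could be kept through groups where it is high. No result was therefore read from the 4 signs or their median. miR-129-5p stood at 364, 210.7, 485.96, 849 and 284 CPM in MCAO_Sham, against 76.2, 231, 127, 277 and 202.8 CPM in Naive. MCAO_Sham 2 lay within the Naive range and the other 4 above it. This gave miR-129-5p a log2 fold change of 1.27 ± 0.47 (SE, adjusted p = 0.241). miR-9-5p, abundant in neural progenitors and neurons, was not counted in MCAO_Sham 1 and stood at 23.4, 110.2, 113 and 10.5 CPM in the other MCAO_Sham libraries, against 0, 16.5, 0, 69.2 and 0 CPM in Naive. Its log2 fold change of 1.83 had an SE of 1.23 (adjusted p = 0.536). miR-219a-2-3p, of oligodendrocytes, gave 1.07 ± 1.03, and miR-128-3p, which serum carries at a high level, gave 0.10 ± 0.20 (SE). miR-124-3p, the defining miRNA of neurons, had 6 counts over MCAO_Sham and 0 over Naive, where a count of 0 allows up to 11.3 CPM. miR-338-5p, made from an intron of Aatk, was outside the list, at 132, 281, 306, 434 and 189 CPM in MCAO_Sham against 127, 149, 203.8, 115 and 158 CPM in Naive. MCAO_Sham 1 and 7 lay within the Naive range, and the log2 fold change was 0.85 ± 0.33 (SE, adjusted p = 0.304).

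The liver miRNAs had lower mean levels in MCAO_Sham, and for miR-122-5p this rested on Naive 1 and Naive 2. miR-122-5p, which makes up most of the miRNA of hepatocytes, stood at 51476, 21695, 65645, 101338 and 56144 CPM in MCAO_Sham, against 175703, 447851, 30190.0, 28514 and 33481 CPM in Naive. Naive 1 and Naive 2 lay above every MCAO_Sham library, and Naive 3, 4 and 5 lay below every MCAO_Sham library except MCAO_Sham 2. The log2 fold change was -1.27 ± 0.71 (SE, adjusted p = 0.522), and without Naive 1 and Naive 2 it was 0.89 (adjusted p = 0.626). miR-192-5p gave -0.50 ± 0.28, miR-194-5p -0.53 ± 0.38 and miR-101b-3p -0.61 ± 0.44 (SE). For miR-192-5p, Naive 2 stood at 20334 CPM, above the 7368 to 10164 CPM of the other Naive libraries. The log2 fold change of miR-192-5p ran from -0.70 to -0.13 over the alternatives. The median of the 4 kept liver miRNAs was -0.57, with none past the threshold. miR-215-5p of the gut and liver shares the seed UGACCUA with miR-192-5p and gave -0.54 ± 0.25 (SE, adjusted p = 0.442), at 3874 to 9108 CPM in MCAO_Sham and 5700.3 to 11341 CPM in Naive.

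Of the miR-148/152 family, miR-152-3p gave 0.66 ± 0.27 (SE, adjusted p = 0.323), miR-148a-3p 0.63 ± 0.40 (adjusted p = 0.536) and miR-148b-3p 0.04 ± 0.31 (adjusted p = 0.945). miR-152-3p stood at 1225, 1745, 1167, 849 and 1084 CPM in MCAO_Sham, against 902, 1273, 611, 576 and 428 CPM in Naive. Naive 2 lay above 4 of the MCAO_Sham libraries. miR-148a-3p stood at 98963, 125488, 72414, 71502 and 62985 CPM in MCAO_Sham, against 45965, 85070.3, 77908, 34369 and 36297 CPM in Naive. MCAO_Sham 1 and 2 lay above every Naive library, and Naive 2 and 3 lay above the other 3 MCAO_Sham libraries.

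In the list of smooth muscle and fibroblast miRNAs, the 13 kept members had a median of -0.03. miR-199a-5p, made in part from Dnm3os in mesenchymal cells, stood at 629, 1569, 1047, 1000.2 and 999.8 CPM in MCAO_Sham, against 1093, 2430.1, 2929.8, 1544 and 766 CPM in Naive. Naive 5 lay below all MCAO_Sham libraries but the first, so the groups overlapped. For miR-199a-5p the log2 fold change was -0.73 ± 0.32 (SE, adjusted p = 0.407), and its close relative miR-199b-5p gave -0.92 ± 0.46 (adjusted p = 0.511). The 3p arm that the miR-199a and miR-199b hairpins share gave 0.25 ± 0.20 (adjusted p = 0.573).

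The erythrocyte list had 7 kept members with a median of -0.31 and none past the test. miR-451a, which matures without Dicer in red cell precursors, averaged 5534 ± 2698 CPM in MCAO_Sham and 6323 ± 1652 CPM in Naive (SD, n = 5 each), a log2 fold change of -0.19 (95% interval -0.83 to 0.44). miR-144-3p, made from the same transcript as miR-451a, gave -0.65 ± 0.49, and miR-486-5p, counted together with miR-3107-5p, gave -0.33 ± 0.26 (SE). The 3p arm of miR-486 gave 0.50 ± 0.36, miR-16-5p -0.31 ± 0.24, miR-92a-3p -0.41 ± 0.33 and miR-25-3p 0.02 ± 0.19 (SE). The platelet-rich list of 6 had a median of -0.01, with -0.31 ± 0.19 for miR-191-5p. miR-223-3p stands in the myeloid, platelet-rich and endothelial lists.

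The 11 kept epithelial miRNAs, of the miR-200, miR-203, miR-205 and miR-183 families, were all positive, from 0.01 to 0.62 with a median of 0.27, and none passed. miR-205-5p, of stratified epithelia such as skin, gave 0.62 ± 0.40 and miR-200c-3p, which keeps cells epithelial by repressing Zeb1, gave 0.53 ± 0.37 (SE). The 8 kept members of the let-7 list, repressors of growth genes such as Hmga2, were all negative, from -0.32 to -0.02 with a median of -0.19, and none passed. They are 5p arms except let-7d-3p, at -0.02. Kept let-7 entries outside the list were let-7j, at -0.31, and the 3p arms let-7b-3p and let-7a-1-3p|let-7c-2-3p, both at 0.28. The smallest p among them were those of let-7c-5p, at -0.32 ± 0.24, and let-7g-5p, at -0.28 ± 0.21 (SE). Members of such families are often alike in sequence and share libraries, so their signs are not independent. The endothelial list of 7 had a median of -0.10, with -0.42 ± 0.22 (SE) for miR-126a-3p, the miRNA of the Egfl7 intron that guides vessel integrity.

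The remaining lists had small medians or few kept members. The miR-30 list of 7 had a median of 0.09, with 0.40 ± 0.22 (SE) for miR-30a-5p. The 6 kept members of miR-17-92 and its paralogs, linked to cell proliferation, had a median of -0.20, with -0.52 ± 0.26 for miR-19b-3p and -0.49 ± 0.32 for miR-17-5p (SE). The 8 common serum reference miRNAs, used elsewhere to scale serum measurements, had a median of -0.14, with 0.28 ± 0.19 for miR-320-3p and -0.29 ± 0.21 for miR-103-3p (SE). The 3 kept gut and pancreas miRNAs had a median of -0.13, and miR-375-3p of the endocrine pancreas gave 0.18 ± 0.24 (SE). Of the p53 targets, miR-34c-5p alone was kept, at -0.10 ± 0.52 (SE), and of the Htr2c intron only miR-1298-5p was kept, at 0.52 ± 0.97 (SE). The hypoxia miRNA miR-210-3p was under the filter, with 26 counts over MCAO_Sham and 19 over Naive, a CPM ratio of 0.738 (exact 95% interval 0.393 to 1.41, counting error only).

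**Figure D5:**
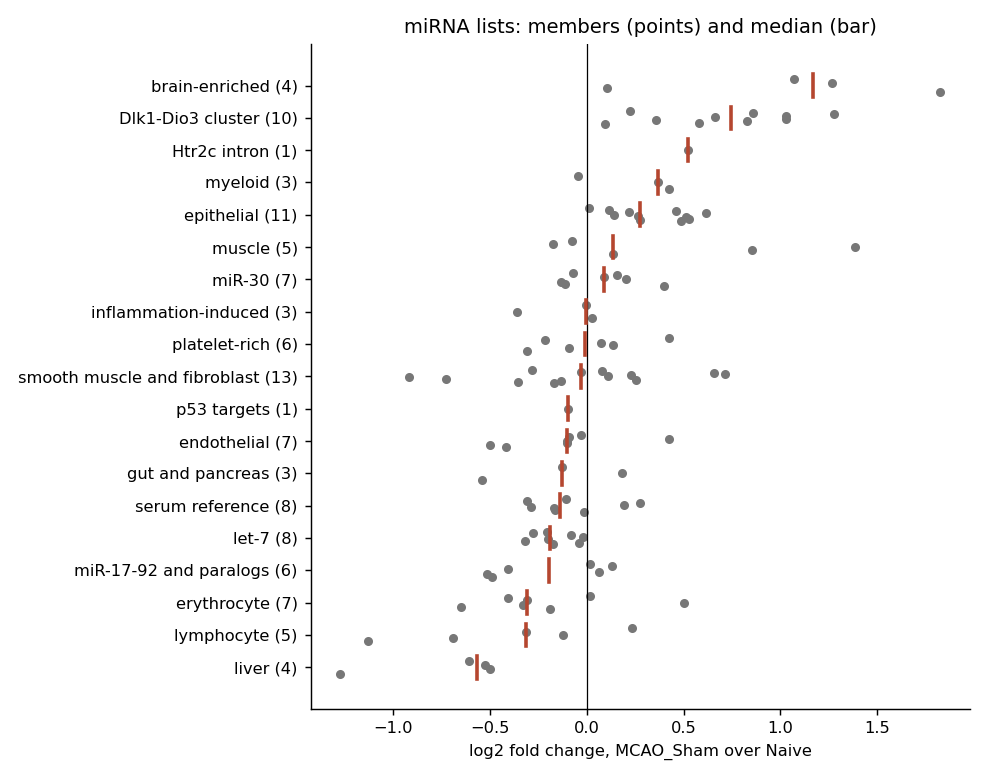
Log2 fold change of MCAO_Sham over Naive (horizontal axis) for the kept members (points) of each list, with the list's median (bar) and the number of kept members in brackets. The brain-enriched and Dlk1-Dio3 lists have the highest medians, 1.17 (4 members) and 0.75 (10 members), and the liver list the lowest, -0.57 (4 members).

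Some sequence properties were set beside the fold changes. A RefSeq mature sequence was found for 170 of the 199 miRNAs. Of these, 58 shared their seed with another of the 170, in 22 seed groups. Kept miRNAs without a sequence, miR-133a-3p and miR-1a-3p among them, were not compared, so seeds shared with them are not counted. The miR-26 pair, with seed UCAAGUA, gave -0.50 for miR-26a-5p and -0.65 for miR-26b-5p, and the 3 miR-29 members, with seed AGCACCA, gave 0.23 to 0.72. The values within the group of miR-17-5p, with seed AAAGUGC, ran from -0.49 to 0.13. The GC content of the mature sequence and the log2 fold change had a Pearson correlation of 0.06 and a Spearman correlation of 0.08 across these 170 miRNAs, which are not independent replicates and share libraries. Both arms were kept for 26 hairpins, and in 19 of them the arms had the same sign.

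The series holds another sham operation, needle placement in a stereotactic frame. ICH_Sham and MCAO were set against the same 5 Naive libraries, so their values are given beside those of MCAO_Sham and are not independent of them. miR-150-5p had a log2 fold change of -1.13 in MCAO_Sham, -1.15 in ICH_Sham (adjusted p = 0.00757) and -1.63 in MCAO (adjusted p = 0.000111), each over Naive. miR-133b-3p had 1.38 in MCAO_Sham, 1.92 in ICH_Sham (adjusted p = 0.00795) and 1.23 in MCAO (adjusted p = 0.0391). miR-152-3p had 0.66 in MCAO_Sham, 0.90 in ICH_Sham (adjusted p = 0.0348) and 1.43 in MCAO (adjusted p = 0.00037). The median of the 13 kept cluster miRNAs was 0.83 in MCAO_Sham, 0.50 in ICH_Sham and 0.38 in MCAO, beside -0.02, -0.05 and 0.02 over all miRNAs. Positive values were 12 of 13 in MCAO_Sham, 10 of 13 in ICH_Sham (45.2% of all miRNAs) and 9 of 13 in MCAO (52.8% of all miRNAs). Of single members, miR-434-3p gave 1.19 in ICH_Sham (adjusted p = 0.00757) and 0.38 in MCAO (adjusted p = 0.312). miR-379-5p gave 1.29 in ICH_Sham (adjusted p = 0.00838) and 0.86 in MCAO (adjusted p = 0.0423). In MCAO, miR-300-3p gave 0.93 (adjusted p = 0.0391) and miR-381-3p 0.76 (adjusted p = 0.0424). The other kept members passed in neither. Summed cluster means were 5384 CPM in MCAO_Sham, 5295 CPM in ICH_Sham, 4231 CPM in MCAO and 3569.7 CPM in Naive. Over Naive, 13 of 199 miRNAs passed the test in ICH_Sham (6.53%) and 61 in MCAO (30.7%).

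Tested directly, MCAO_Sham and ICH_Sham differed in 0 of 199 miRNAs by edgeR's quasi-likelihood test, with 25 at an unadjusted p under 0.05 (12.6%). limma voom called 0 and DESeq2 called 6, miR-134-5p among them. For miR-150-5p the difference was 0.02 ± 0.26 (SE, adjusted p = 0.9748). For miR-134-5p it was 1.19 ± 0.33 (SE, adjusted p = 0.0840), the miRNA having a log2 fold change of 1.08 over Naive in MCAO_Sham and -0.11 in ICH_Sham. Without MCAO_Sham 4 the test called 2 miRNAs, miR-486-3p and miR-134-5p, and without MCAO_Sham 2 it called 2 others, miR-1a-3p and miR-206-3p. The cluster median for MCAO_Sham over ICH_Sham was 0.12, beside 0.03 over all miRNAs, and 8 of 13 were positive (52.8% of all miRNAs).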

How the data were processed

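Small RNA libraries were made from serum RNA with the NEBNext kit, per the labels' protocols, which also name a cel-miR-39 spike-in that is not used here. The authors deposited raw read counts per miRNA, with 2 sequencing runs per library in separate columns; Bowtie 0.12.9 is named in the submitters' processing notes, while trimming, genome build and miRNA annotation were not given in the sources used here. After a comparison of the runs (chi-square per degree of freedom 0.834 to 1.27, against at least 11.2 between libraries of a group), the 50 columns were summed to 25 libraries over 1892 entries. Total counts in the 10 libraries compared ran from 38393 to 182763. Exact intervals and floors cover counting error only, since reads carry no molecular identifiers.

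All 25 libraries entered 1 model in edgeR 4.0.16 (R 4.3.3): filterByExpr (minimum count 10; 199 miRNAs kept, holding 99.4% of the counts of the 10 libraries), TMM scaling, robust quasi-likelihood fit, 20 residual degrees of freedom, and Benjamini-Hochberg adjustment over all 199. The procedure was run on simulated counts with planted 4-fold changes. These are larger than any change estimated for MCAO_Sham over Naive, so that run does not show how well smaller changes are found. Adjusted p-values are from this test unless another tool is named. CPM values use TMM-scaled totals. Single values were compared by exact two-sided permutation of the 10 libraries. limma 3.58.1, DESeq2 1.42.0, other scalings and filters, single runs, thinning, omitted libraries, index tag ranges and a replicate block were alternatives. Fits without Naive 1 and Naive 2, without miR-122-5p, or with upper index tags alone were added after the data had been seen.

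The members and lists were chosen with earlier results of these data known. Named miRNAs are the 15 with the smallest p, the 10 most abundant, all kept members of the lymphocyte, myeloid, erythrocyte and muscle lists, the 2 kept members of every other list with the smallest p, and those whose groups do not overlap; other miRNAs named, the chromosome 12 window among them, were chosen after their values had been seen. miR-142a-5p of the list is the table's miR-142-5p. Hairpin positions are from RefSeq GRCm38.p6 and GENCODE M21. Replicate numbers come from the labels, which do not say that they mark a shared animal or day.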

Additional observations from a re-analysis of the deposited data

Results flagged for a closer look

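Among the 61 named miRNAs and the single values, 130 groups of 5 libraries were looked at, and in 9 of them 1 library stood apart from the other 4 by Dixon's measure. Chance alone sets a library apart in about 1 in 20 groups. No explanation was tested.

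The Hox-locus miRNAs were high in Naive 3, with miR-10b-5p at 108175 CPM and miR-10a-5p at 62979 CPM, and miR-10a-5p was low in MCAO_Sham 2 at 28942.5 CPM. The smooth muscle miRNA miR-143-3p was high in MCAO_Sham 1 at 60235 CPM. The muscle miRNA miR-206-3p was high in MCAO_Sham 2 at 23498 CPM, and miR-499-5p, of slow muscle and heart, was high in Naive 1 at 152 CPM. In Naive 2, miR-451a of red cells reached 9208 CPM and miR-192-5p of liver and gut 20334 CPM, in the library that also held the most miR-122-5p. The neural miR-9-5p was at 69.2 CPM in Naive 4, in a group where 3 libraries had none.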

How the results depend on the processing

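The number of miRNAs called for MCAO_Sham over Naive was 0 with library totals alone, 2 with a replicate block, 4 with upper index tags alone, and 0 to 2 when 1 library was left out. For MCAO_Sham over ICH_Sham it was 2 without the filter, 5 with these groups alone, 6 by DESeq2, and 0 to 2 when 1 library was left out. Groups without overlap numbered 7 with library totals alone, 7 after thinning, and 2 to 7 when 1 library was left out. In every other alternative run these counts stayed as reported, and the number of intervals within 2-fold stayed within 1.5 times its value. The share of the 10 most abundant miRNAs turned to 0.395 percentage points with upper index tags alone, and ran from -2.56 to 2.61 when 1 library was left out (2.61 without Naive 2). The red cell measure, log2 of miR-451a over miR-23a-3p, turned to 0.613 with lower index tags alone, and ran from -0.49 to 0.16 when 1 library was left out (0.16 without MCAO_Sham 1). The difference in log2 total ran from 0.38 to 0.84 and that in detected miRNAs from 2.67 to 14.4 when 1 library was left out. The causes were not tested.

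miR-150-5p stayed negative in all 25 alternatives. miR-122-5p turned to 0.89 without Naive 1 and Naive 2. Of the 61 named miRNAs, 17 had a log2 fold change smaller than its SE, so that no direction was read from them, and 14 of these changed sign in some alternative. The cluster median ran from 0.56 to 1.05 over the alternatives.

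Libraries with the same replicate number did not visibly deviate together (correlations from -0.15 to 0.03 over 4 shared numbers, and 0 MCAO_Sham libraries correlated best with their own number). So few correlations cannot exclude that the numbers mark a shared animal or day. With the replicate block, 2 miRNAs were called: miR-150-5p at -1.36 (adjusted p = 0.00897) and miR-148a-3p at 0.89 (adjusted p = 0.0083). With upper index tags alone the calls were miR-133b-3p, miR-150-5p (-1.43, adjusted p = 0.0141), miR-26a-5p (-0.96, adjusted p = 0.0277) and miR-106b-3p (-0.84, adjusted p = 0.0323). Depth limits the miRNAs under the filter, most brain-enriched ones among them.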

Other observations

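Several miRNAs outside the lists were looked at after their values had been seen, and none passed the adjusted threshold. miR-224-5p, made from an intron of Gabre, stood at 66.2 to 135 CPM in MCAO_Sham and 0 to 82.7 CPM in Naive (log2 fold change 0.89 ± 0.41, SE, adjusted p = 0.444 by edgeR). miR-708-3p, from an intron of Odz4, gave 0.56 ± 0.26 (adjusted p = 0.442). Both arms of miR-22 were positive, at 0.63 for miR-22-5p and 0.37 for miR-22-3p.

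Lower mean levels in MCAO_Sham were found for both miR-26 members. miR-26b-5p stood at 82.8, 480.0, 907, 321 and 474 CPM in MCAO_Sham, against 800.4, 975, 611, 645 and 676 CPM in Naive. MCAO_Sham 4 alone lay within the Naive range. miR-26a-5p stood at 2285 to 7690.3 CPM in MCAO_Sham and 4725 to 7322 CPM in Naive, again with MCAO_Sham 4 as the one library that was not below Naive. Adjusted p was 0.511 for miR-26b-5p and 0.522 for miR-26a-5p by edgeR.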
